A study of Mus musculus with 23 samples.

Results

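The TRIM genes encode tripartite motif proteins, in which a RING domain, B-box zinc fingers and a coiled coil are followed by a variable end that differs between members. Here the family was taken as the protein-coding genes of the count table whose symbol is Trim followed by a number, without Trim63, Trim32 and Trim72. There were 65 such genes, and the 36 that reached 1 CPM (counts scaled to the library's total) in at least 3 libraries were kept. All 36 were also listed in the second table of the study. Of the 29 below this minimum, 5 had 0 counts in every library and 7 were listed in the second table. Just inside the minimum stood Trim5, which reached 1 CPM in 3 libraries, and Trim59, which reached it in 4. Just outside stood Trim14 and Trim36, each with 2 such libraries. Trim12a, Trim30d, Trim34a, Trim46, Trim5 and Trim59 did not reach 1 CPM in all libraries of every group.

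Most TRIM proteins are E3 ubiquitin ligases: the RING domain brings a ubiquitin-loaded E2 enzyme to the substrate, and the coiled coil pairs the protein with itself or a relative. The variable end sets the substrate or the location. In the MuRF members a COS domain binds microtubules and the sarcomere, in the TIF1 members a PHD finger and bromodomain read histone tails, and many members with a PRY-SPRY domain act in defence against viruses and are induced by interferon. In skeletal muscle the family is best known for Trim63 (MuRF1), a ligase of muscle atrophy, and for its relatives Trim54 (MuRF3) and Trim55 (MuRF2).

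RNA was sequenced from mouse skeletal muscle, and the labels do not say which muscle. The first set held 3 libraries of PAX4 KO muscle at 10 d after denervation (an operation that cuts the nerve supply), 3 of WT muscle at 10 d after denervation and 3 of innervated WT muscle. The second set held 3 libraries of NRF1-PAX4 double KD muscle, 3 of NRF1 KD muscle and 2 of WT con muscle, each at 10 d after denervation. KO and KD are the labels' words for knockout and knockdown. PAX4 is a paired box transcription factor, and NRF1 here is alpha-PAL, an activator of genes for mitochondrial proteins. The series asks how several transcription factors together control proteasome genes. The labels give no allele, promoter, age or sex, do not say how expression was reduced, and leave unsaid whether libraries of a group came from separate animals. The p-values thus cover the spread among the libraries at hand, part of which may be technical.

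The libraries held 21716216 to 42821396 counts in the first set and 23740769 to 30165765 recovered reads in the second. mRNA of the targeted genes was no test of the labels. For Pax4, 0 counts were found in each of the 9 first-set libraries, and by a limit of 3 counts its level could be as high as 0.0701 to 0.138 CPM (counting error only). Nrf1 mRNA stood at 427 to 454 normalised counts in double KD, 476 to 524 in NRF1 KD and 444 to 488 in WT con libraries. Esr1, the estrogen receptor alpha gene, did separate the WT labels from the KO and KD labels. It stood at 437 to 566 CPM in PAX4 KO libraries against 18.4 to 20.1 CPM in denervated WT libraries. In the second set it stood at 14970 to 15839 in double KD and 14107 to 16062 in NRF1 KD against 459 to 541 normalised counts in WT con libraries. Double KD and NRF1 KD were not separated by it. Esr1 was chosen after its values were seen. Summed skeletal muscle markers (Acta1, Ckm, Ttn and 5 others) were far above 0 in every library, at 47779 to 117243 CPM in the first set. One innervated library stood apart. Chrng, the fetal acetylcholine receptor subunit that denervation induces, was at 84.5 to 155 CPM in denervated WT libraries, but at 0.197, 16.0 and 0.105 CPM in innervated WT libraries 1 to 3. Denervated WT library 1 had the lowest Chrng and the lowest Trim63 of its group. Results below were therefore also computed without innervated library 2 and denervated WT library 1.

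Promoter sequence is shown for members of a cluster on chromosome 7, of which 4 rose in NRF1 KD muscle, and for 2 members that fell there. The windows, from RefSeq on GRCm38.p6, hold 80 bases before and 10 bases after a motif in capitals, written 5′ to 3′ on the strand of the gene. In the first set of windows the capitals mark the core of the interferon-stimulated response element, GAAA and GAAA with 2 bases between them, which here lies on the opposite strand.
Trim12a, chr7:104315466-104315565, minus strand: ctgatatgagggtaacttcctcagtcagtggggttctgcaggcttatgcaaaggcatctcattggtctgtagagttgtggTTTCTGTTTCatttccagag
Trim12c, chr7:104353359-104353458, minus strand: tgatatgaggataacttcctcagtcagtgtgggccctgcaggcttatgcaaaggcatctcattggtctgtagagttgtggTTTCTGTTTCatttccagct
Trim30d, chr7:104507871-104507970, minus strand: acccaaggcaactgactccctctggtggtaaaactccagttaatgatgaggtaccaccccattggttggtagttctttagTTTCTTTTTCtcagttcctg
Trim34a, chr7:104244387-104244486, plus strand: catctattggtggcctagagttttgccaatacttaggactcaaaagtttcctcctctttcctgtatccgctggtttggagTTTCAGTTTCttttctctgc
The Trim5 window at chr7:104288136-104288235 was 100% identical to that of Trim12a over all 100 bases, and the Trim30a window at chr7:104465210-104465309 was 100% identical to that of Trim30d. In the next pair the capitals mark the site that NRF1 binds, GCGCA and GCGC with 1 base between them.
Trim13, chr14:61599403-61599502, plus strand: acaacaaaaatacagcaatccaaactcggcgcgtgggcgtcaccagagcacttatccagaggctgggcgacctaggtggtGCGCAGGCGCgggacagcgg
Trim23, chr13:104178619-104178718, plus strand: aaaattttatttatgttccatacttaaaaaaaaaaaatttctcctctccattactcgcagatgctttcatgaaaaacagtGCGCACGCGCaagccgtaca

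Across promoters of 300 bases, searched on both strands, the interferon-response core was found in 3.44% of all 32851 RefSeq mouse promoters and in 10 of the 40 promoters that matched 28 of the 36 members. The 9 genes with it were Trim12a, Trim12c, Trim2, Trim21, Trim26, Trim30a, Trim30d, Trim34a and Trim5, of which 6 are neighbours on chromosome 7 between 104244457 and 104507849 (GRCm38). The windows of Trim12a and Trim5 were identical, as were those of Trim30d and 1 entry of Trim30a, so not all 6 are independent matches. Without gaps, Trim12a and Trim12c windows were 70% identical, and Trim12a and Trim30d windows 46%. The Trim34a window was 36% identical to that of Trim12a and 33% to that of Trim30d. The NRF1 site was found in 4.60% of all promoters and in 6 of the 40, from Trim13, Trim23, Trim37, Trim39 and Trim59. Trim13 also has a promoter entry without the site, at chr14:61597976-61598275. The E-box CANNTG was found in 72.3% of all promoters and in 31 of the 40. A match is a description of the letters and not a measured binding site.

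Per length, the MuRF member Trim54 was the most abundant of the 36. Its level was 105 ± 24.3 CPM per kilobase of exon in PAX4 KO, 112 ± 13.2 in denervated WT and 136 ± 11.6 in innervated WT muscle (SD, n = 3 each). Next came Trim35, a PRY-SPRY member that binds pyruvate kinase, and Trim55. Trim35 stood at 27.6 ± 0.403, 24.1 ± 3.37 and 26.0 ± 4.73 CPM per kilobase in the same order of groups, and Trim55 at 21.8 ± 1.43, 22.7 ± 2.23 and 30.5 ± 3.46. The ranges of Trim35 and Trim55 overlapped in denervated and in innervated WT muscle, so their order there is not set. The chromatin corepressor Trim28 followed in PAX4 KO muscle at 13.0 ± 1.10 CPM per kilobase. At the low end, Trim46 had 0.407 ± 0.0403 CPM per kilobase in PAX4 KO, 0.305 ± 0.0727 in denervated WT and 0.148 ± 0.0381 in innervated WT muscle.

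**Figure D1:**
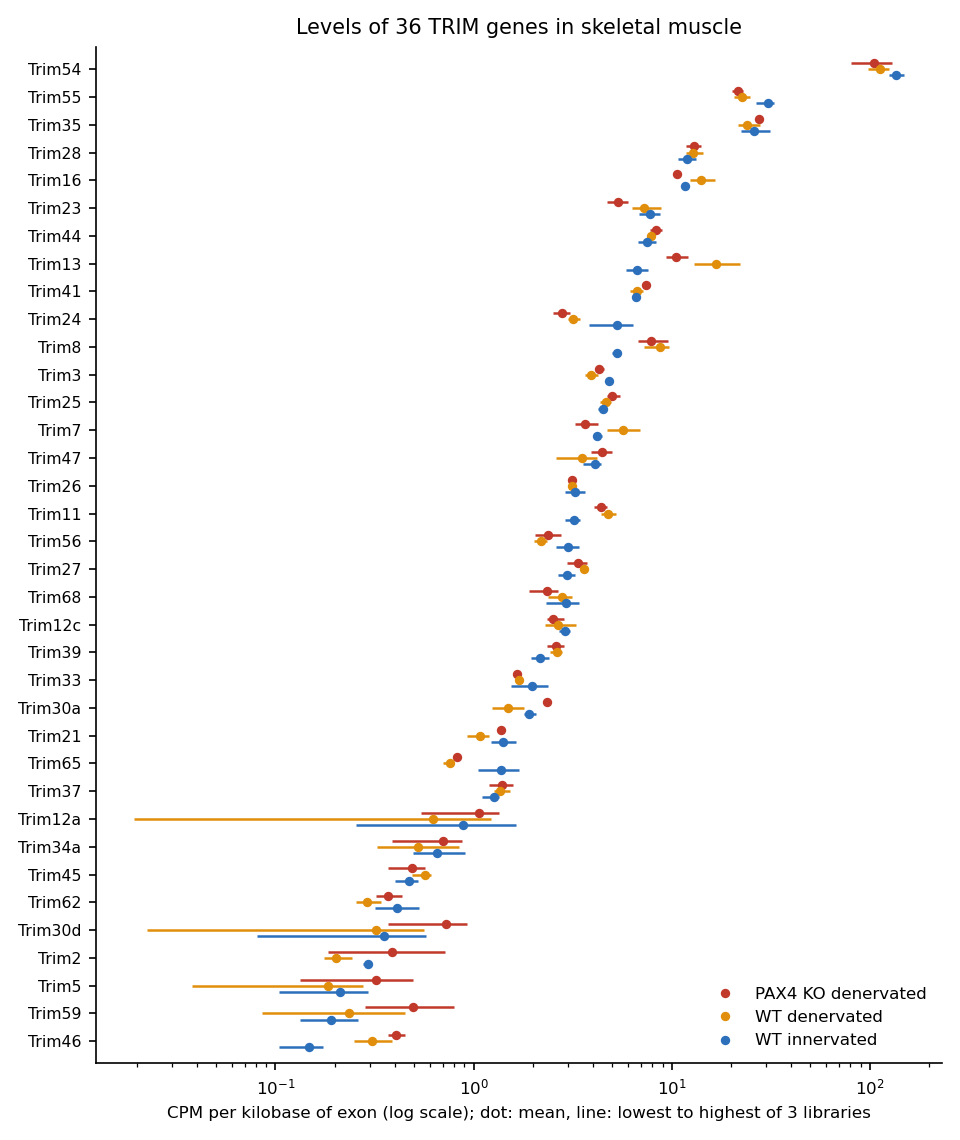
Levels of the 36 TRIM genes in the first set, in CPM per kilobase of exon on a log axis. Dots are means and lines run from the lowest to the highest of 3 libraries in PAX4 KO denervated, WT denervated and WT innervated muscle; Trim54 stands above all others, and Trim12a, Trim30d and Trim5 have the longest lines.

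Denervated WT muscle differed from innervated WT muscle in 9 of the 36 TRIM genes. Trim13, Trim11 and Trim8 were higher, by 1.48-fold to 2.50-fold. Trim46 was also called higher, but it reached the 1 CPM minimum in 5 libraries of which none was innervated, so the rule itself selected for that direction and its call is given as a description. Trim65, Trim24, Trim55, Trim56 and Trim3 were lower, by 1.24-fold to 1.80-fold. Calls rest on edgeR's quasi-likelihood test with Benjamini-Hochberg adjusted p under 0.05 over all 16146 genes tested, and 32.3% of all genes passed it in either direction (16.5% higher and 15.8% lower). The median log2 fold change was -0.10 over the 36 members and 0.02 over all genes, and 15 members had an unadjusted p under 0.05, against 43.4% of all genes. In bulk RNA, fewer cells of a type and less RNA per cell cannot be told apart. Summed macrophage markers moved with denervation, at 439 to 884 CPM in denervated WT against 119 to 365 CPM in innervated WT libraries, with 9 of 13 markers higher. Endothelial markers were lower in 7 of 9 cases (542 to 703 CPM summed in denervated WT, 979 to 1082 CPM in innervated WT libraries), smooth muscle and pericyte markers in 6 of 7, Schwann cell markers in 5 of 9 and adipocyte markers in 4 of 6. The part of these lists in the TRIM values was not tested. Summed skeletal muscle markers were at 59948 to 69653 CPM in denervated and 92293 to 117243 CPM in innervated WT libraries.

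**Figure D2:**
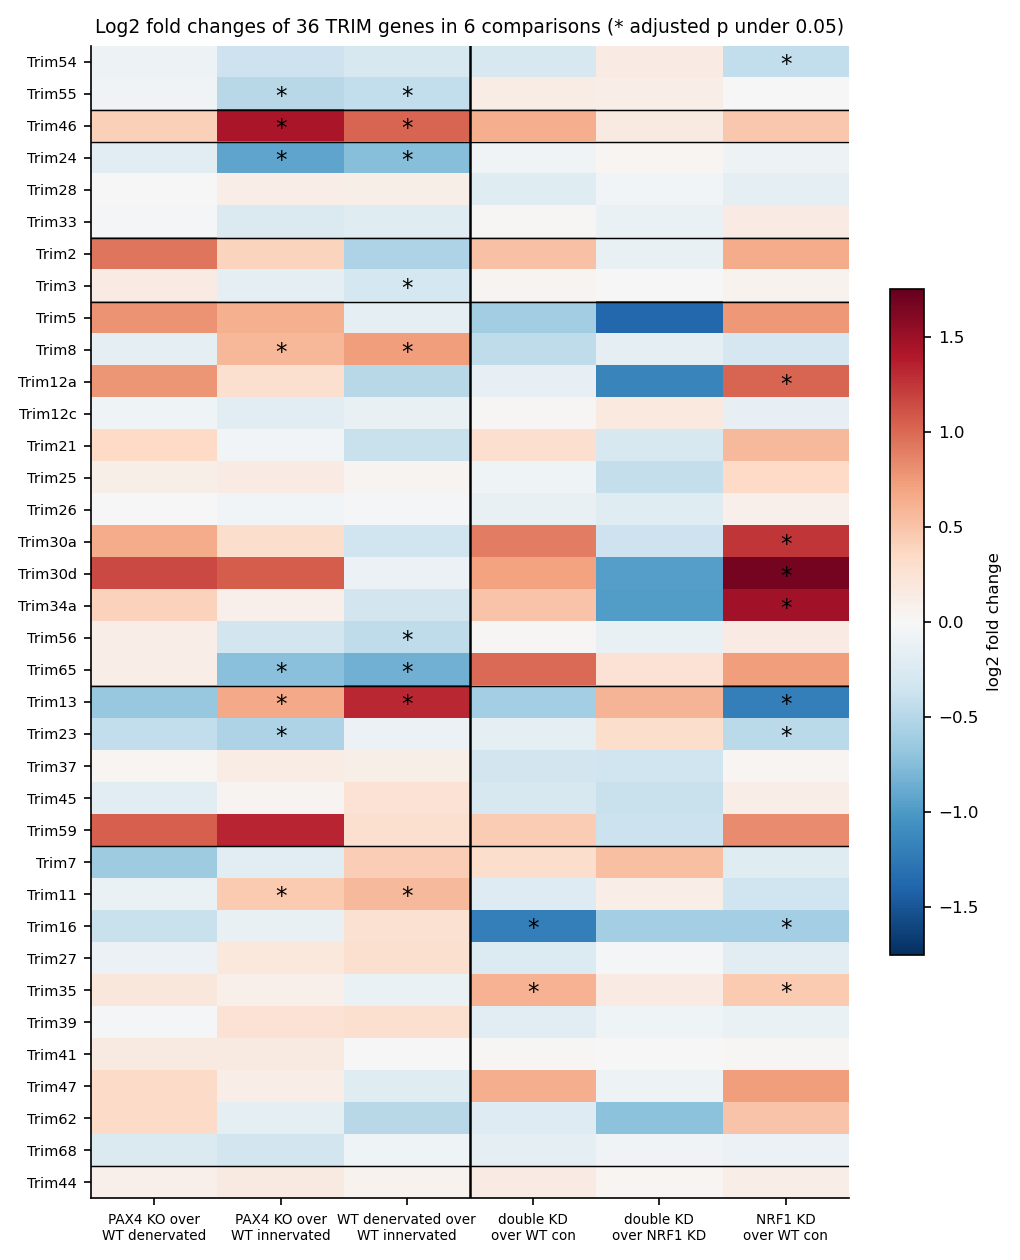
Log2 fold changes of the 36 TRIM genes (rows, in blocks by domain class) in 6 comparisons (columns), red for higher and blue for lower, with an asterisk where the adjusted p was under 0.05. The 3 left columns come from the first set and the 3 right columns from the second; Trim13 is called higher in both comparisons with innervated muscle and lower in NRF1 KD over WT con.

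Trim13, a ligase anchored in the membrane of the endoplasmic reticulum (chromosome 14, 61598247 to 61605946, GRCm38), had 21.4, 36.3 and 25.1 CPM in denervated WT libraries, against 10.7, 12.5 and 9.73 CPM in innervated WT libraries. Every denervated library was above every innervated one, and denervated library 2 was the highest. The log2 fold change was 1.32 ± 0.19 (SE, edgeR, adjusted p = 0.000934). Trim11, a PRY-SPRY ligase that acts in the clearance of misfolded proteins, had 15.7, 16.9 and 18.7 CPM in denervated WT against 10.4, 12.0 and 12.3 CPM in innervated WT libraries (log2 fold change 0.56 ± 0.12, adjusted p = 0.00503, edgeR). Trim8, a ligase of cytokine signalling, had 26.8, 34.6 and 35.8 CPM in denervated WT against 19.5, 20.7 and 18.5 CPM in innervated WT libraries (0.73 ± 0.15, adjusted p = 0.00532, edgeR). Neither gene had overlapping groups. Trim46, known from neurons as an organiser of parallel microtubules, was scarce, with 1.47, 1.06 and 0.942 CPM in denervated WT and 0.394, 0.658 and 0.628 CPM in innervated WT libraries, a log2 fold change of 1.02. Of its exon bases, 6.30% overlap Krtcap2 on the opposite strand, and without strand information such reads cannot be told apart.

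Both MuRF members were lower on average, and 1 of them was called. Trim55 (chromosome 3, 19644474 to 19692421) had 66.4, 59.8 and 54.6 CPM in denervated WT libraries, against 85.0, 70.7 and 87.9 CPM in innervated WT libraries. The groups did not overlap, and the log2 fold change was -0.43 ± 0.12 (edgeR, adjusted p = 0.0207). Trim54 (chromosome 5, 31116712 to 31137630) had 142, 162 and 180 CPM in denervated WT against 191, 180 and 213 CPM in innervated WT libraries. These groups came within rounding of each other near 180 CPM, and the log2 fold change of -0.27 ± 0.17 did not pass (adjusted p = 0.242, edgeR). An antisense gene, Gm15469, overlaps 26.6% of the exon bases of Trim54. The third MuRF gene Trim63, left out of the 36, had 255, 630 and 607 CPM in denervated WT against 329, 248 and 333 CPM in innervated WT libraries, so that denervated library 1 lay within the innervated range (0.71 ± 0.29, adjusted p = 0.0846, edgeR). Of 12 sarcomere and Z-disc genes taken as partners of the MuRF proteins, 7 rose and 1, the Z-disc gene Myot, fell. The median over the 12 was 0.75 on the log2 scale, against 0.02 over all genes. Fhl2 and Ankrd2, stress-responsive sarcomere genes, were higher by 2.54 and 2.43 on the log2 scale (adjusted p = 0.000538 and 0.00182, edgeR).

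Among the chromatin members, Trim24 (TIF1-alpha, a reader of histone tails) was called. It had 29.3, 26.6 and 25.5 CPM in denervated WT libraries, against 54.4, 32.6 and 49.2 CPM in innervated WT libraries (-0.74 ± 0.17, adjusted p = 0.00857, edgeR). Innervated library 2, which stood apart above, was the lowest of its group. Trim28 and Trim33 of the same class did not pass. Of the 12 interferon and antiviral members, Trim8 rose and Trim65 and Trim56 fell, and 10 of the 12 log2 fold changes were negative. The negative values include Trim12a (-0.49), Trim34a (-0.32), Trim5 (-0.16) and Trim30d (-0.10), none of them called. These genes varied strongly between libraries of the same group, with library 2 the lowest in both WT groups. No difference between groups is drawn for them, and the count of negative values is only a description. Trim65, which ubiquitinates the RNA sensor Ifih1, had 4.67, 4.11 and 4.66 CPM in denervated WT against 8.03, 6.20 and 10.0 CPM in innervated WT libraries (-0.85 ± 0.18, adjusted p = 0.00628, edgeR). It shares 3.82% of its exon bases with its neighbour Trim47 on the same strand. Trim56, an antiviral ligase of the cytosolic DNA-sensing pathway, had 18.7, 20.6 and 21.8 CPM in denervated WT against 27.5, 24.2 and 31.5 CPM in innervated WT libraries (-0.44 ± 0.14, adjusted p = 0.0314, edgeR). Of 20 interferon response genes outside the family, 0 rose and 4 fell by edgeR (10 had an unadjusted p under 0.05), and the median over the list was -0.43 on the log2 scale. Trim3, an NHL-repeat member, had 17.6, 16.6 and 19.4 CPM in denervated WT against 22.1, 22.9 and 21.3 CPM in innervated WT libraries (-0.30 ± 0.10, adjusted p = 0.0358, edgeR), the smallest called change of the 9.

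**Figure D3:**
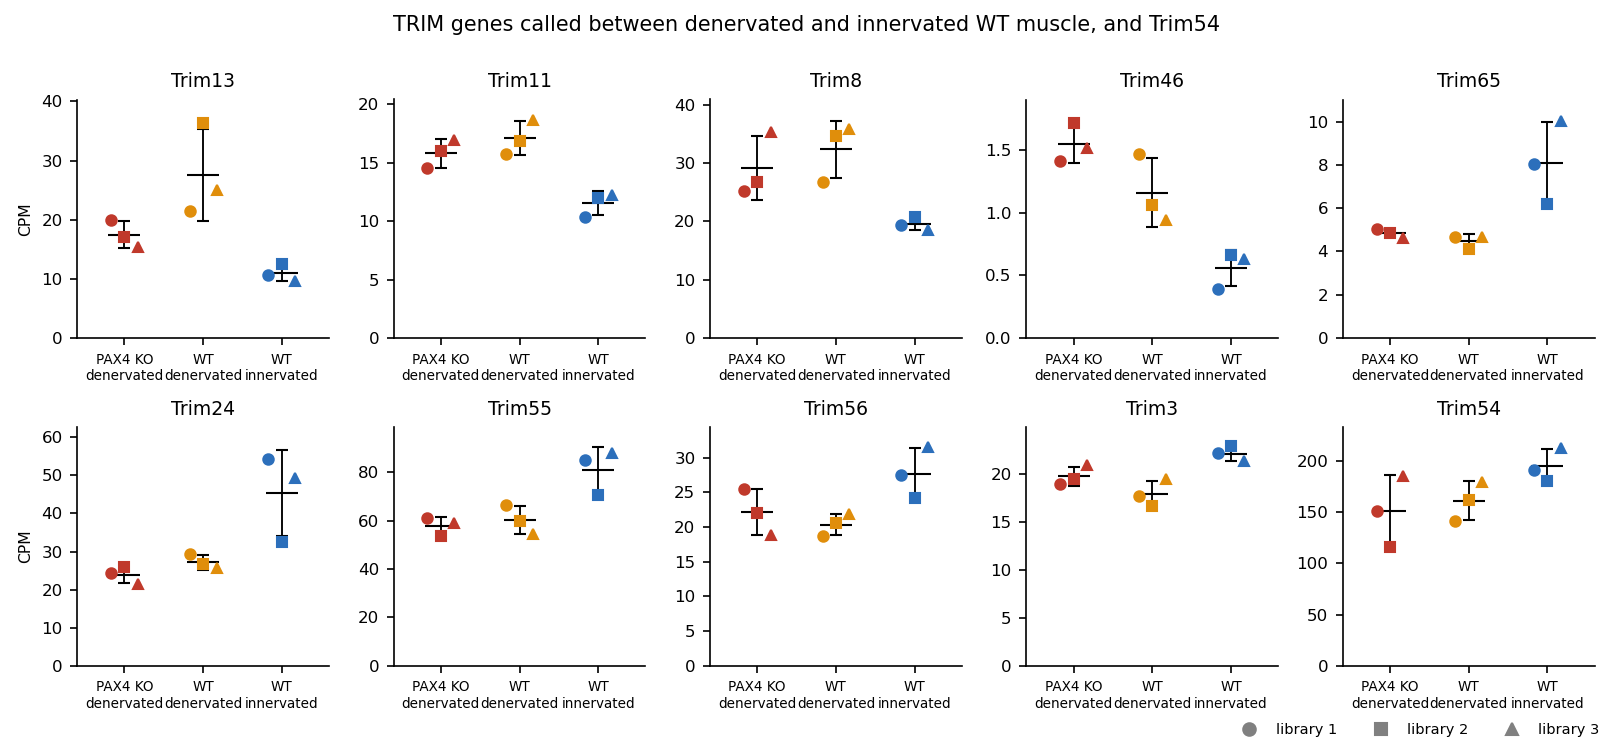
CPM of the 9 TRIM genes called between denervated and innervated WT muscle, and of Trim54, per library (y axis from 0). Points are libraries 1 to 3 of PAX4 KO denervated, WT denervated and WT innervated muscle, with the mean and SD in black; the WT groups do not overlap in the 9 called genes, while in Trim54 they nearly touch.

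The calls of Trim13, Trim11, Trim8, Trim65 and Trim24 held with each of the 6 libraries left out in turn and under the other settings tried. Trim3, Trim56, Trim55 and Trim46 each lost the call in 3 to 5 of the 6 left-out fits, and 5 of 36 members were called without innervated library 1 or without innervated library 3. Without innervated library 2 and denervated WT library 1 together, 9 were called.

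PAX4 KO muscle was compared with WT muscle, both denervated. None of the 36 TRIM genes passed the test in edgeR, in which 3 of 16146 genes passed (0.0186%). An unadjusted p under 0.05 was found for 6 members, against 12.9% of all genes. DESeq2 called 2 members, Trim30a and Trim7, where it called 1.33% of all genes. Trim30a, in mice a brake on Toll-like receptor signalling, had 9.95, 9.86 and 9.19 CPM in PAX4 KO libraries, against 7.39, 5.09 and 5.94 CPM in denervated WT libraries (0.65 ± 0.15, adjusted p = 0.264, edgeR). Trim7, which binds glycogenin, had 26.6, 32.3 and 24.7 CPM in PAX4 KO against 52.6, 40.5 and 35.7 CPM in denervated WT libraries (-0.63 ± 0.15, adjusted p = 0.264, edgeR). Both genes had groups that did not overlap, but they were named for the smallest p of the 36, so this is no separate support. Without innervated library 2 and denervated WT library 1, Trim30a was called (log2 fold change 0.80).

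Trim13 had 19.9, 17.1 and 15.4 CPM in PAX4 KO libraries, all below the 21.4 to 36.3 CPM of denervated WT libraries (-0.66 ± 0.19, adjusted p = 0.283, edgeR). The MuRF members overlapped between these groups. Trim54 had 152, 116 and 186 CPM in PAX4 KO libraries (-0.09 ± 0.17, adjusted p = 0.839, edgeR), and Trim55 had 61.0, 53.6 and 59.0 CPM (-0.06 ± 0.12, adjusted p = 0.860, edgeR). Over the 36 members the median log2 fold change was 0.06, against 0.01 over all genes. The 20 interferon response genes outside the family had positive log2 fold changes in 20 of 20 cases, with a median of 0.65 and 17 unadjusted p under 0.05, but 0 were called. Their summed level was 161 to 172 CPM in PAX4 KO and 104 to 119 CPM in denervated WT libraries. Macrophage markers summed to 790 to 1393 CPM in PAX4 KO and 439 to 884 CPM in denervated WT libraries. Fibroblast markers summed to 2853 to 8423 CPM in PAX4 KO and 1751 to 2345 CPM in denervated WT libraries. Of 7 fibroblast markers 7 had positive log2 fold changes, 4 an unadjusted p under 0.05 and 0 were called. Of 6 neutrophil markers 4 had an unadjusted p under 0.05 and 0 were called. The part of these lists in these values was not tested.

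Against innervated WT muscle, denervated PAX4 KO muscle differed in 8 of 36 TRIM genes, where 40.0% of all genes were called (21.8% higher and 18.2% lower). It shares its innervated libraries with the comparison of denervated and innervated WT muscle, and its PAX4 KO libraries with the comparison of PAX4 KO and denervated WT muscle. Trim46, Trim13, Trim8 and Trim11 were higher, with log2 fold changes of 1.43, 0.66, 0.58 and 0.45. Trim24, Trim65, Trim23 and Trim55 were lower, with -0.92, -0.73, -0.54 and -0.49. For Trim24 the PAX4 KO libraries had 24.3, 26.0 and 21.5 CPM (adjusted p = 0.00234, edgeR), below the innervated range of 32.6 to 54.4 CPM. Trim46 had 1.41, 1.71 and 1.52 CPM in PAX4 KO libraries, above the innervated range, but it met the 1 CPM minimum only through denervated libraries and its call is again a description. Trim23, which joins a RING domain to a GTPase domain, had 34.8, 27.0 and 30.7 CPM in PAX4 KO against 50.3, 39.4 and 44.7 CPM in innervated WT libraries (adjusted p = 0.0206, edgeR). Trim11 had 14.5, 16.0 and 17.0 CPM, Trim8 25.2, 26.9 and 35.4 CPM and Trim65 5.05, 4.88 and 4.64 CPM in PAX4 KO libraries, and none of these groups overlapped with innervated WT muscle. Trim54 was not called (-0.37 ± 0.17, adjusted p = 0.108, edgeR). Without innervated library 1, 5 members were called, Trim13 and Trim23 each lost the call in 3 of the 6 left-out fits, and Trim11 and Trim8 each in 1. Macrophage markers were higher in 13 of 13 cases and neutrophil markers in 4 of 6, while endothelial markers were lower in 8 of 9, skeletal muscle markers in 6 of 8 and smooth muscle and pericyte markers in 5 of 7, and their part was not tested.

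Within groups, the ratio of the highest to the lowest library had a median over the 36 members of 1.24 in PAX4 KO, 1.29 in denervated WT and 1.25 in innervated WT muscle. Some genes of the chromosome 7 cluster went far beyond this. A wide spread was not particular to the cluster. On chromosome 3, Trim59 had a ratio of 5.27 in denervated WT muscle and Trim2 of 3.91 in PAX4 KO muscle. Trim12a, a mouse relative of the primate retrovirus restriction factor TRIM5, had 3.59, 0.112 and 7.12 CPM in denervated WT libraries 1 to 3, and 4.34, 1.48 and 9.48 CPM in innervated WT libraries 1 to 3. Its counts in denervated WT libraries were 149, 4 and 272, so the highest was 63.6 times the lowest. Trim30d, a close relative of Trim30a, had 1.44, 0.0839 and 2.12 CPM in denervated WT and 1.53, 0.302 and 2.16 CPM in innervated WT libraries. Trim5 had 0.867, 0.140 and 1.02 CPM in denervated WT and 1.08, 0.384 and 0.872 CPM in innervated WT libraries. For Trim12a, Trim30d, Trim5 and Trim34a, library 2 was the lowest of both WT groups, and these libraries carry the same number in the column names.

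In PAX4 KO muscle the lowest library was library 3 for the same 4 genes. Trim12a had 7.75, 7.61 and 3.15 CPM there, and Trim30d had 3.33, 3.49 and 1.39 CPM. Trim34b, which lies in the same family but below the minimum, had the opposite pattern. It had 0, 0 and 0.367 CPM in PAX4 KO, 0.481, 0.699 and 0.0523 CPM in denervated WT and 0.345, 0.959 and 0 CPM in innervated WT libraries. Trim34a, an interferon-induced member, had 2.25, 2.18 and 1.00 CPM in PAX4 KO, 1.04, 0.839 and 2.20 CPM in denervated WT and 1.48, 1.29 and 2.34 CPM in innervated WT libraries. Of the 50-base windows of Trim34a transcripts, 39.8% also occur in Trim34b, so the authors' counting could split reads between them. The share of Trim12a windows found in any other TRIM gene was 7.86%, that of Trim30d 7.49% and that of Trim5 29.5%, mostly with Trim12c, of whose windows 28.8% were found elsewhere in the family. The neighbours Trim12c and Trim30a varied less, with the highest 1.43 and 1.45 times the lowest in denervated WT libraries. Trim12c was at 8.80 to 10.7 CPM in PAX4 KO, 8.58 to 12.3 CPM in denervated WT and 10.1 to 11.4 CPM in innervated WT libraries. Trim30a too was lowest in library 2 of both WT groups and in library 3 of PAX4 KO muscle. The cause of the spread was not tested. No difference between groups is drawn for Trim12a, Trim30d, Trim5 and Trim34a in the first set.

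**Figure D4:**
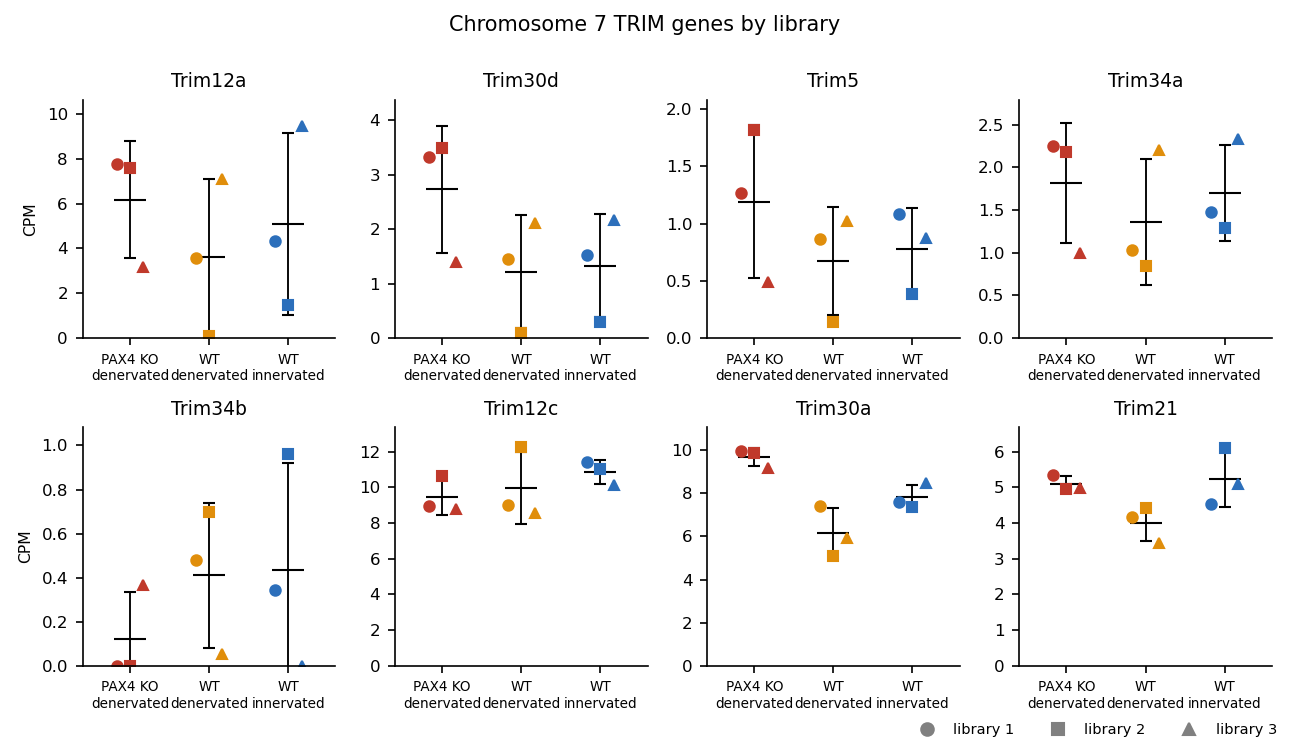
CPM of 8 TRIM genes of chromosome 7 per library of the first set (y axis from 0). Points are libraries 1 to 3 of each group with the mean and SD in black; in both WT groups library 2 (square) is lowest for Trim12a, Trim30d, Trim5 and Trim34a and highest for Trim34b.

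NRF1 KD muscle differed from WT con muscle in 9 of 36 TRIM genes, both groups being denervated. Of these, 4 of the 5 that rose lie in the chromosome 7 cluster: Trim30d, Trim34a, Trim30a and Trim12a, by 2.02-fold to 3.19-fold. Trim12a, Trim30d and Trim34a are among the genes that varied strongly between libraries of 1 group in the first set, and with 2 WT con libraries such variation and the knockdown cannot be told apart for them. Trim35 also rose, and Trim13, Trim16, Trim23 and Trim54 fell. Calls are from limma on log2 of the normalised count plus 1, with adjusted p under 0.05 over 15624 genes, of which 11.3% were called (7.58% higher and 3.72% lower). Fold changes on this scale understate the change of low genes. The median log2 fold change was 0.10 over the 36 members and 0.00 over all genes, and 13 members had an unadjusted p under 0.05, against 27.6% of all genes.

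Trim30a had 225, 348 and 429 normalised counts in NRF1 KD libraries, against 130 and 140 in WT con libraries 2 and 3 (log2 fold change 1.26 ± 0.25, limma, adjusted p = 0.0131). All NRF1 KD libraries were above both WT con libraries, with library 3 the highest. Trim30d had 62.4, 114 and 121 normalised counts in NRF1 KD and 38.1 and 22.3 in WT con libraries (1.67 ± 0.35, adjusted p = 0.0149, limma). Trim34a had 71.1, 74.2 and 115 normalised counts in NRF1 KD and 43.5 and 20.4 in WT con libraries (1.47 ± 0.37, adjusted p = 0.0296, limma). Trim12a had 280, 222 and 297 normalised counts in NRF1 KD and 187 and 90.2 in WT con libraries (1.02 ± 0.28, adjusted p = 0.0415, limma). In the last 3 genes WT con library 3 was well below WT con library 2, and the values rest on that library: without it the log2 fold change of Trim12a was 0.50 and that of Trim34a 0.95, neither called. Without WT con library 2 that of Trim12a was 1.54. On the deposited log2 values, where low counts are compressed, the 4 genes were called with 0.71, 0.56, 0.47 and 0.53. Trim5, with the same promoter window as Trim12a, had 39.4, 38.5 and 56.0 normalised counts in NRF1 KD and 23.9 and 27.2 in WT con libraries (adjusted p = 0.206, limma), and Trim12c had 265, 248 and 274 against 297 and 282.

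Of the 9 members with the interferon-response core in a promoter entry, 4 rose and 0 fell in NRF1 KD muscle. Of the 19 others with a promoter entry 0 rose and 3 fell, while Trim35 had no promoter entry. The 4 lie in the chromosome 7 cluster, and for Trim12a, Trim30d and Trim34a library variation and the knockdown cannot be told apart. A link between motif and change was not tested. In the main fits of the other 5 comparisons 0 of the 9 were called. Of all genes, 32.3% were called in denervated and 40.0% in PAX4 KO against innervated WT muscle. In PAX4 KO against denervated WT muscle 0.0186% were called. The share was 4.08% in double KD against WT con and 0.134% in double KD against NRF1 KD. Trim30a was called by DESeq2 in PAX4 KO against denervated WT muscle, and by the authors' own test in double KD against WT con. Of the 20 interferon response genes outside the family, 16 were higher and 0 lower, with a median log2 fold change of 1.45. Irf7, a regulator of interferon genes, and Bst2, a tether of budding viruses, were higher by 2.48 and 1.50 on the log2 scale (adjusted p = 0.000512 and 0.00219, limma). Macrophage markers rose in 12 of 12 cases and summed to 18484 to 37402 normalised counts in NRF1 KD libraries, against 8006 to 10586 in WT con libraries. Neutrophil markers rose in 4 of 6 cases and fell in 1, but their summed level was lower in NRF1 KD. It was 1215 to 1479 normalised counts there and 2071 to 2926 in WT con libraries. Fibroblast markers rose in 4 of 7 cases. Whether RNA of these cells takes part in the rise of these TRIM genes was not tested.

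Trim35 had 3943, 3804 and 3678 normalised counts in NRF1 KD and 2591 and 2945 in WT con libraries (0.46 ± 0.11, adjusted p = 0.0252, limma). Trim13 had 513, 428 and 406 normalised counts in NRF1 KD libraries, against 926 and 1131 in WT con libraries. This was 2.29-fold lower in NRF1 KD, the smallest adjusted p of the family here (-1.19 ± 0.16, adjusted p = 0.00322, limma). Trim16, which takes part in the response to damaged lysosomes, had 2302, 1917 and 1857 normalised counts in NRF1 KD and 3571 and 2609 in WT con libraries (-0.60 ± 0.14, adjusted p = 0.0238, limma), but -0.37 and not called without WT con library 2. Trim23 had 1403, 1299 and 1180 normalised counts in NRF1 KD and 1740 and 1858 in WT con libraries (-0.48 ± 0.13, adjusted p = 0.0440, limma). Of the 5 members with the NRF1 site in a promoter entry, Trim13 and Trim23 fell and 0 rose. Of the 23 others with a promoter entry 4 rose and 1 fell. Another promoter entry of Trim13 lacks the site, and the Trim23 call was lost in 4 of the 5 left-out fits. A link between site and change was not tested. In double KD muscle against WT con 0 of the 5 were called by limma, against 4.08% of all genes (Trim13 -0.60 and Trim23 -0.17 on the log2 scale). The authors' own test gave Trim13 an adjusted p of 0.0159 there. In denervated against innervated WT muscle, where 32.3% of all genes were called, Trim13 rose and 0 fell. In PAX4 KO against innervated WT muscle, where 40.0% of all genes were called, Trim13 rose and Trim23 fell.

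Of the MuRF members, Trim54 was called in NRF1 KD muscle and Trim55 was not, and the difference between the genes was not tested. Trim54 had 10209, 11692 and 9803 normalised counts in NRF1 KD libraries, against 14480 and 13808 in WT con libraries (-0.42 ± 0.10, adjusted p = 0.0273, limma). This call was lost in 4 of the 5 left-out fits and under 2 of 7 other settings. Trim55 had 1615, 1797 and 1619 normalised counts in NRF1 KD and 1710 and 1616 in WT con libraries, which overlapped (0.01 ± 0.11, adjusted p = 0.969, limma). Trim63, outside the 36, was lower in NRF1 KD by 0.77 on the log2 scale (-0.77, adjusted p = 0.0138, limma), and Trim72, a membrane repair protein of muscle, was higher by 0.54 (adjusted p = 0.0193, limma). Only Trim13 was called in each fit that left out 1 of the 5 libraries. Without NRF1 KD library 3 it was the 1 member called, and 3, 4 and 5 members were called without NRF1 KD library 2, WT con library 2 and WT con library 3.

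**Figure D5:**
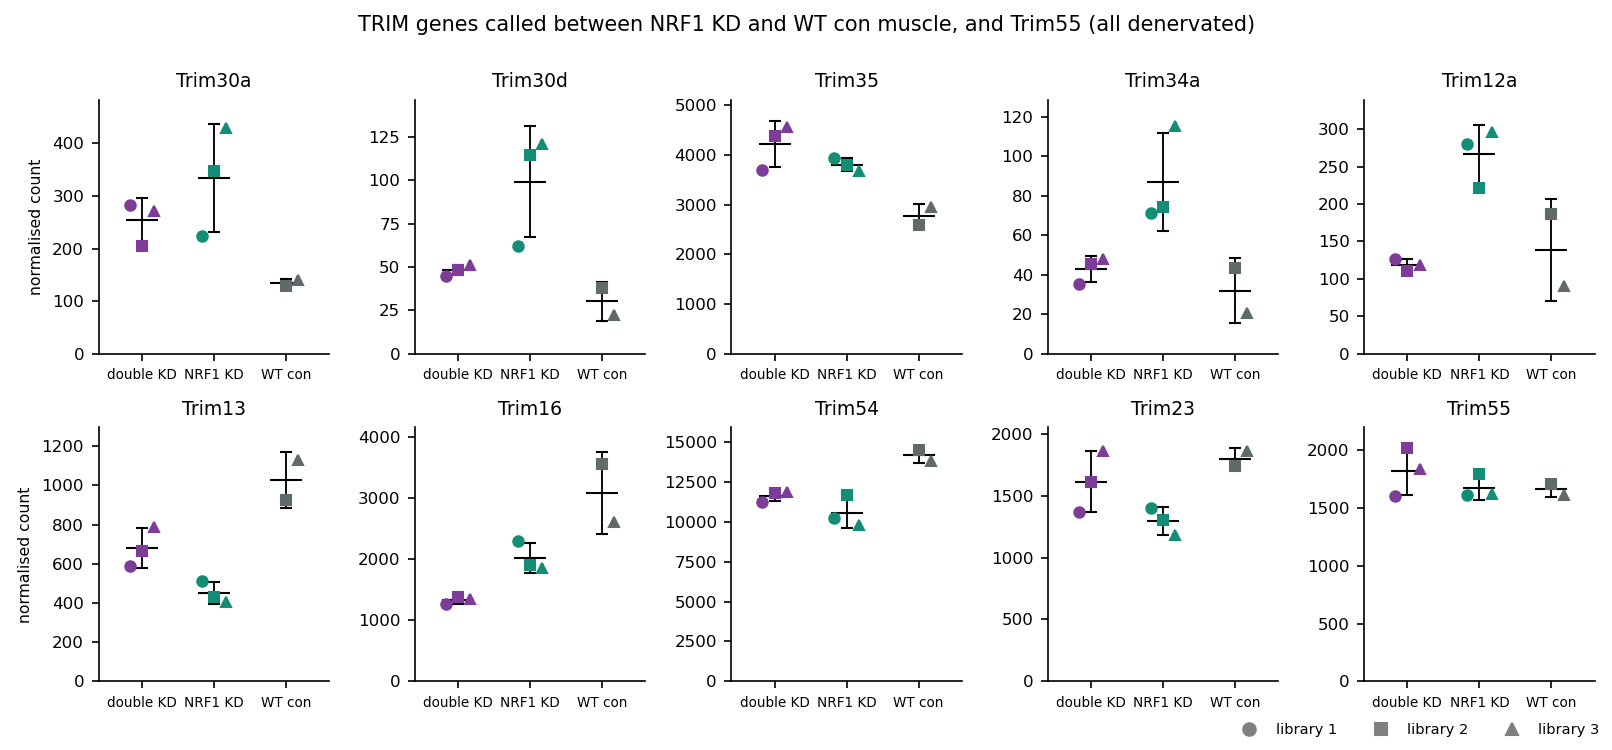
Normalised counts of the 9 TRIM genes called between NRF1 KD and WT con muscle, and of Trim55, per library (y axis from 0). Points are libraries of double KD, NRF1 KD and WT con muscle, all denervated, with the mean and SD in black; WT con has libraries 2 and 3, and Trim16 is lowest in double KD while Trim13 is lowest in NRF1 KD.

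Double KD muscle differed from the same WT con libraries in 2 of 36 TRIM genes, where 4.08% of all genes were called (2.39% higher and 1.70% lower). Trim16 had 1264, 1378 and 1352 normalised counts in double KD libraries, against 3571 and 2609 in WT con libraries. It was 2.29-fold lower in double KD (-1.20 ± 0.14, adjusted p = 0.00336, limma). Trim35 had 3694, 4382 and 4571 normalised counts in double KD and 2591 and 2945 in WT con libraries (0.60 ± 0.11, adjusted p = 0.0201, limma). Neither gene had overlapping groups, and 8 members had an unadjusted p under 0.05, against 21.4% of all genes. Trim13 had 587, 666 and 789 normalised counts in double KD libraries, below both WT con libraries but not called (-0.60 ± 0.16, adjusted p = 0.0621, limma). Trim54 had 11259, 11784 and 11855 (-0.28 ± 0.10, adjusted p = 0.151, limma), and Trim55 had 1606, 2023 and 1839 (0.13 ± 0.11, adjusted p = 0.570, limma).

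By limma, none of the 12 interferon and antiviral members was called in double KD muscle, with a median log2 fold change of 0.02. The authors' own test gave an adjusted p of 0.0170 for Trim30a and 0.0177 for Trim8, both of this class. Trim30a had 284, 205 and 272 normalised counts in double KD libraries, above both WT con libraries (0.89 ± 0.25, adjusted p = 0.0766, limma). Of the 20 interferon response genes outside the family 6 rose and 0 fell, and their median was 0.99 on the log2 scale. Of 12 macrophage markers 1 rose, but 12 had positive log2 fold changes (median 0.93) and 10 an unadjusted p under 0.05, and they summed to 14301 to 22702 normalised counts in double KD and 8006 to 10586 in WT con libraries. Fibroblast markers rose in 2 of 7 cases, and the part of these lists was not tested. The call of Trim35 was lost without WT con library 2 or double KD library 2, with only these groups fitted, or with a replicate block, and that of Trim16 was kept in each fit.

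Double KD and NRF1 KD muscle were compared directly. By limma 0 of 36 TRIM genes were called, and 0.134% of all genes (0.0768% higher and 0.0576% lower). An unadjusted p under 0.05 was found for 10 members, against 11.2% of all genes. Trim12a, Trim5, Trim30d and Trim34a, which varied between libraries of the same group in the first set, are among them. Trim16 was lower in double KD (-0.60 ± 0.13, adjusted p = 0.122, limma), with all double KD libraries under the lowest NRF1 KD library. Trim12a had 126, 110 and 118 normalised counts in double KD against 280, 222 and 297 in NRF1 KD libraries, again with no overlap (-1.15 ± 0.25, adjusted p = 0.125, limma). Trim16 and Trim12a were named for the smallest p of the 36, so the lack of overlap is no separate support. With only these groups in the fit both were called (adjusted p = 0.0435 and 0.0186, limma). For Trim12a, variation between libraries as in the first set and the knockdown cannot be told apart. Trim13 was on the other side, with no overlap either (0.60 ± 0.14, adjusted p = 0.151, limma). Trim54 and Trim55 overlapped between the groups (0.14 ± 0.09 and 0.12 ± 0.10). The edgeR test on the recovered reads also called 0 members. Beside these values, 12 of 12 macrophage markers and 18 of 20 interferon response genes had negative log2 fold changes, with 0 called in either list by limma (9 and 11 with an unadjusted p under 0.05), and their part was not tested.

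In the authors' deposited tables, adjusted p under 0.05 was listed for 7 of the 36 members between denervated and innervated muscle, against 26.4% of all genes. In the authors' deposited tables it was listed for 0 members between PAX4 KO and WT muscle, for 10 in NRF1 KD against WT con and for 5 in double KD against WT con, where 1.05%, 15.1% and 8.53% of all genes had it. The 5 in double KD were Trim13, Trim16, Trim30a, Trim35 and Trim8. The authors' deposited table gave Trim13 log2 fold changes of -1.20 in NRF1 KD and -0.60 in double KD, and it gave Trim16 -0.61 and -1.21.

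Of 9 genes with related domains that carry other names, 3 rose and 2 fell in denervated against innervated WT muscle. Mid1, Mid2 and the scarce Bspry rose, and Cmya5 and Fsd2, both abundant in striated muscle, fell by 1.19 and 1.52 on the log2 scale. Mid1 and Mid2 bind microtubules through a COS domain, as does Trim46. Mefv, the pyrin gene expressed in myeloid cells, rose in NRF1 KD muscle by 2.89 and in double KD muscle by 1.98 on the log2 scale (adjusted p = 0.00637 and 0.0488, limma), and Fsd2 rose in double KD muscle by 0.79. Trim63 was lower by 1.05 and Trim72 higher by 0.69 on the log2 scale in double KD muscle (-1.05 for Trim63, adjusted p = 0.00952 and 0.0167, limma).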

How the data were processed

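Skeletal muscle RNA was extracted with TRIzol and libraries were made with a SMARTER mRNA-Seq kit, per the labels' protocols. Builds GRCm38 and mm10 are named in the submitters' processing notes; the sources used here name no aligner, counter or strand setting. Raw counts per gene were deposited for the first set. Log2 values per library, on a variance-stabilised scale, were deposited for the second. Its mean column, also deposited, is a signal: counts over size factors, averaged. Deposited p-value columns and log2 fold changes are from the authors' own tests. Not analysed here were WT con 1, 2 further innervated samples and 3 samples at 14 d.

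The members and gene lists were chosen with earlier results of these data known. Libraries of the first set were tied to groups by column names and numbered in ascending order of the numbers there. Counts were tested with edgeR 4.0.16 (R 4.3.3; quasi-likelihood F test, TMM, filterByExpr, all groups in 1 fit). Log2 values were inverted to normalised counts; their mean and the deposited mean signal were within 3.34e-07% of each other, and 100% of values gave reads within 0.05 of a whole number. These were tested with limma 3.58.1 (trend) on log2 of the value plus 1. Levels in the first set are CPM at TMM-scaled library sizes; the 1 CPM minimum used unscaled totals. Adjusted p is by Benjamini-Hochberg over all genes tested. Between libraries of a group, chi-square divided by its degrees of freedom was 21.8 to 84.4, so no library was a copy of another of its group. Libraries of different groups were not compared in this way. Both fits were tested on simulated data. Positions of the 36 members overlapped GENCODE M21 (GRCm38) genes in all cases. Values in every library are given for Trim54, Trim55 and up to 6 called members in each direction, or the 2 with the smallest p where none was called; other values were chosen after they were seen. The protein comparison planned for MuRF members was not made.

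Alternatives in the first set were DESeq2 size factors, DESeq2 1.42.0, no filter, a mean of at least 5 CPM, only the groups compared and each library left out. In the second set they were pseudocounts of 0.1 and 5, a mean of at least 100 normalised counts, the deposited log2 values and edgeR on recovered reads, besides the groups and libraries. A replicate block was run where numbers are shared. The fit without both libraries that stood apart was chosen after seeing the data.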

Additional observations from a re-analysis of the deposited data

How the results depend on the processing

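Between denervated and innervated WT muscle 5 to 9 members were called with 1 library left out, against 9 in all libraries. For PAX4 KO against denervated WT muscle the main count was 0; DESeq2 called 2, no filter on low counts 2 (Trim13 and Trim7, both lower), the fit without both libraries that stood apart 1, and fits with 1 library left out 0. Against innervated WT muscle the left-out fits gave 5 to 10, against 8. For NRF1 KD against WT con they gave 1 to 6, against 9, and a replicate block gave 3. For double KD against WT con they gave 1 to 3, against 2; a block gave 1 and a fit of only these groups 1. For double KD against NRF1 KD they gave 0, and a fit of only these groups called 2. The cause of each shift was not tested.

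Over all genes, counts of calls that moved by over 1.5 times were as follows. For PAX4 KO against denervated WT muscle 3 genes were called, against 192 by DESeq2, 456 with no filter, 169 without both libraries that stood apart and 1 to 26 with 1 library left out. For NRF1 KD against WT con it was 1765, against 630 with the block and 550 to 1611 with 1 library left out. For double KD against WT con it was 638, against 231 with only these groups, 136 with the block and 86 to 692 with 1 library left out. For double KD against NRF1 KD it was 21, against 79 with only these groups, 1 with a pseudocount of 0.1, 1 with a mean of at least 100 normalised counts, 9 with the block and 1 to 158 with 1 library left out.

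Small, uncalled changes turned direction. In PAX4 KO against denervated WT muscle Trim54 was -0.27 to 0.065 with 1 library left out, positive without PAX4 KO library 2. Trim55 there was -0.13 to 0.016, positive without denervated WT library 1, and 0.012 without both libraries that stood apart. In NRF1 KD against WT con Trim55 was -0.040 to 0.052, negative without NRF1 KD library 2 and, at -0.030, without WT con library 3. No other member followed through the settings turned direction.

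In the first set same-numbered WT libraries had correlated deviations of 0.209, 0.000186 and 0.107, and not every library correlated best with its own number, so they were not treated as pairs, although library 2 was lowest in both WT groups for Trim12a, Trim30d, Trim5 and Trim34a; with the replicate block 7 members were called. In the second set same-numbered libraries correlated with WT con at 0.0741 and 0.472 for NRF1 KD, and at -0.0767 and -0.497 for double KD. With 2 WT con libraries the deviations mirror each other, so these values cannot decide whether numbers pair samples. The main fits used no pairs. The PAX4 KO columns share no number with WT columns, so no paired analysis was possible there. Members near 1 CPM (Trim5, Trim30d, Trim34a, Trim46, Trim59) rest on few counts, and changes in them are detectable only when large.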
